A study of Homo sapiens with 6 samples.

Results

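The CHD (chromodomain helicase DNA-binding) chromatin remodellers were followed in HK-2 cells, an immortalised human kidney tubular epithelial line, under cisplatin. Genes were taken by symbol from the deposited table, and 8 of its 18969 rows were members: CHD1, CHD2, CHD3, CHD4, CHD6, CHD7, CHD8 and CHD9. All 8 were tested. The family was chosen with the fold changes of this same comparison known, so its fold changes and p-values describe it and are not independent evidence about it. There were 3 libraries from HK-2 cells labelled Nfe2l1 overexpression and given 20 µM cisplatin, and they were set against 3 control libraries from wild-type HK-2 cells given the same 20 µM cisplatin. Every library came from cisplatin-treated cells, and no untreated cells were analysed here. The labels name no vector, no exposure time and no separate cultures for the libraries of a group. The p-values therefore rest on the spread among these libraries alone, and that spread may be technical.

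CHD proteins join paired chromodomains, which bind histone tails, to an SNF2-type ATPase motor that slides, spaces or evicts nucleosomes. CHD1 and CHD2 travel with elongating RNA polymerase II and take part in histone H3.3 deposition. CHD3 and CHD4 are alternative motors of the NuRD complex, which combines remodelling with histone deacetylation, and CHD4 is recruited to damaged DNA. CHD6, CHD7, CHD8 and CHD9 form the remaining subfamily. CHD7 acts at enhancers and is mutated in CHARGE syndrome, and CHD8 restrains beta-catenin target genes and is linked to autism. Cisplatin crosslinks DNA and injures kidney tubule cells. NFE2L1 is a transcription factor of the endoplasmic reticulum membrane that activates proteasome genes through antioxidant response elements.

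RefSeq promoter entries of the 3 members whose libraries did not overlap between groups are shown, because these members carry the differences described next. RefSeq promoter sequences on GRCh38.p14 were matched to 6 of the 8 members by symbol. Each stretch below is the 250 bases before the annotated start, on the gene's own minus strand, at chr12:6606452-6606701 for CHD4, chr5:98929008-98929257 for CHD1 and chr14:21437276-21437525 for CHD8. In the deposited GRCh38 positions CHD4 (ENSG00000111642) spans chr12:6570082-6614524, CHD1 (ENSG00000153922) chr5:98853985-98929007 and CHD8 (ENSG00000100888) chr14:21385194-21456126, all protein coding. The RefSeq starts of CHD4 and CHD8, and the stretches before them, thus lie inside those intervals, and other start sites may exist. The stretches shown for CHD4 and CHD8 may therefore be transcribed parts of the genes, such as introns, rather than promoters, which was not tested. Capitals mark matches on either strand to the antioxidant response element core TGACNNNGC, the CCAAT box CCAAT or the GC box GGGCGG.
CHD4: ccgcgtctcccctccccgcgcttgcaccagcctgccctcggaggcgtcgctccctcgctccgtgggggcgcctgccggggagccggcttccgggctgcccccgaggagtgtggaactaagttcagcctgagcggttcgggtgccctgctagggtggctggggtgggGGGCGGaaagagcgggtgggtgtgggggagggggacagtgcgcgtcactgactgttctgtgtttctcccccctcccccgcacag
CHD1: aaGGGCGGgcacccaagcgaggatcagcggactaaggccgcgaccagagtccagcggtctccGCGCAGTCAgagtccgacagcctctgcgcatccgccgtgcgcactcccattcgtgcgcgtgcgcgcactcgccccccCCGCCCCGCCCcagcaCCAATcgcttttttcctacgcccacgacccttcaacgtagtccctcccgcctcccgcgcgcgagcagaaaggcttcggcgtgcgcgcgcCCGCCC
CHD8: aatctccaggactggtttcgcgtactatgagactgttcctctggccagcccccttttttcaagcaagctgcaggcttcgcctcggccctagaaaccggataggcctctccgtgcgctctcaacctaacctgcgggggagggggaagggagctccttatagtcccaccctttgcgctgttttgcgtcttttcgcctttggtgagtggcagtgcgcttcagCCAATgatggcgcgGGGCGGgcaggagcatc
The CHD4 stretch held 1 GC box, 84 bases before the start, and neither of the other motifs. The CHD1 stretch held 1 antioxidant response element core on the opposite strand, 188 bases before the start, as well as 1 CCAAT box and 4 GC boxes. The GC boxes 111 and 106 bases before the CHD1 start shared 1 base. The CHD8 stretch held 1 CCAAT box and 1 GC box, 31 and 17 bases before its start. Among all 35116 promoter entries of the table, 10.9% held the antioxidant response element core, 32% a CCAAT box and 42.6% a GC box. Guanine and cytosine made up 72% of the CHD4 stretch, 70.8% of the CHD1 stretch and 59.2% of the CHD8 stretch, against a median of 58% over all entries. These matches describe letters in a window and are not measured binding sites.

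The libraries held 16865460 to 23458333 counts. Levels are given as CPM, counts scaled to a common library total with TMM, which corrects for library composition. NFE2L1 itself had 244.7, 744.0 and 339.5 CPM in libraries 1, 2 and 3 labelled overexpression, against 234.2, 253.4 and 246.2 CPM in controls 1, 2 and 3. Library 1 labelled overexpression thus lay within the control range, and the NFE2L1 difference of 0.86 ± 0.35 (log2, SE) did not pass (edgeR adjusted p = 0.115, or 0.0286 without that library). Without library 2 labelled overexpression the difference was 0.25 (edgeR adjusted p = 0.265). Directions below belong to the labels. Of 7 kidney epithelial markers 6 had a row, KRT8, KRT18, KRT19, VIM, CDH2 and PAX8, and CDH1 had none. For the proximal tubule, 7 of 12 markers had no row, and GGT1, AQP1, SLC34A1 and SLC5A2 averaged at most 1.08 CPM in either group. None of 5 endothelial markers had a row, and of 6 blood markers only LYZ had one, at a sum of at most 0.345 CPM. Of 6 fibroblast markers 5 had a row, COL1A2 had none, and most of the signal was LUM. Their sum was 19.5 to 28.5 CPM in libraries labelled overexpression, against 42.8 to 52.0 CPM in controls, and the part of these cells or markers in the results was not tested. In bulk RNA, fewer cells expressing a gene and less of its RNA per cell cannot be told apart.

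Among the 8 members, CHD4 was higher in the libraries labelled overexpression, CHD1 and CHD8 were lower, and CHD2, CHD3, CHD6, CHD7 and CHD9 did not pass an adjusted p of 0.05 in edgeR's quasi-likelihood test. The share of all 15046 tested genes that passed was 19.1%, with 9.62% higher and 9.49% lower. The median log2 fold change of the members was -0.42, against 0.031 over all tested genes. The groups did not overlap for 3 of 8 members, 1 higher and 2 lower, against 42.6% of all tested genes, 21.8% higher and 20.9% lower. Nothing is read from these shares, since this comparison was known when the family was chosen. The calls rest on few libraries: without control 1 edgeR called 1 gene of the whole table, and without control 2 it called 0, with 3962 and 3863 genes at an unadjusted p under 0.05. In the authors' deposited table, the same 3 members had an adjusted p under 0.05: CHD4 with a log2 fold change of 1.13, CHD1 with -1.08 and CHD8 with -0.71. The share of all genes under that threshold there was not counted. A DESeq2 Wald test of the same counts gave these same 3 fold changes. It called 1773 genes higher and 2099 lower among 14188. The deposited values are thus not separate evidence.

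**Figure D1:**
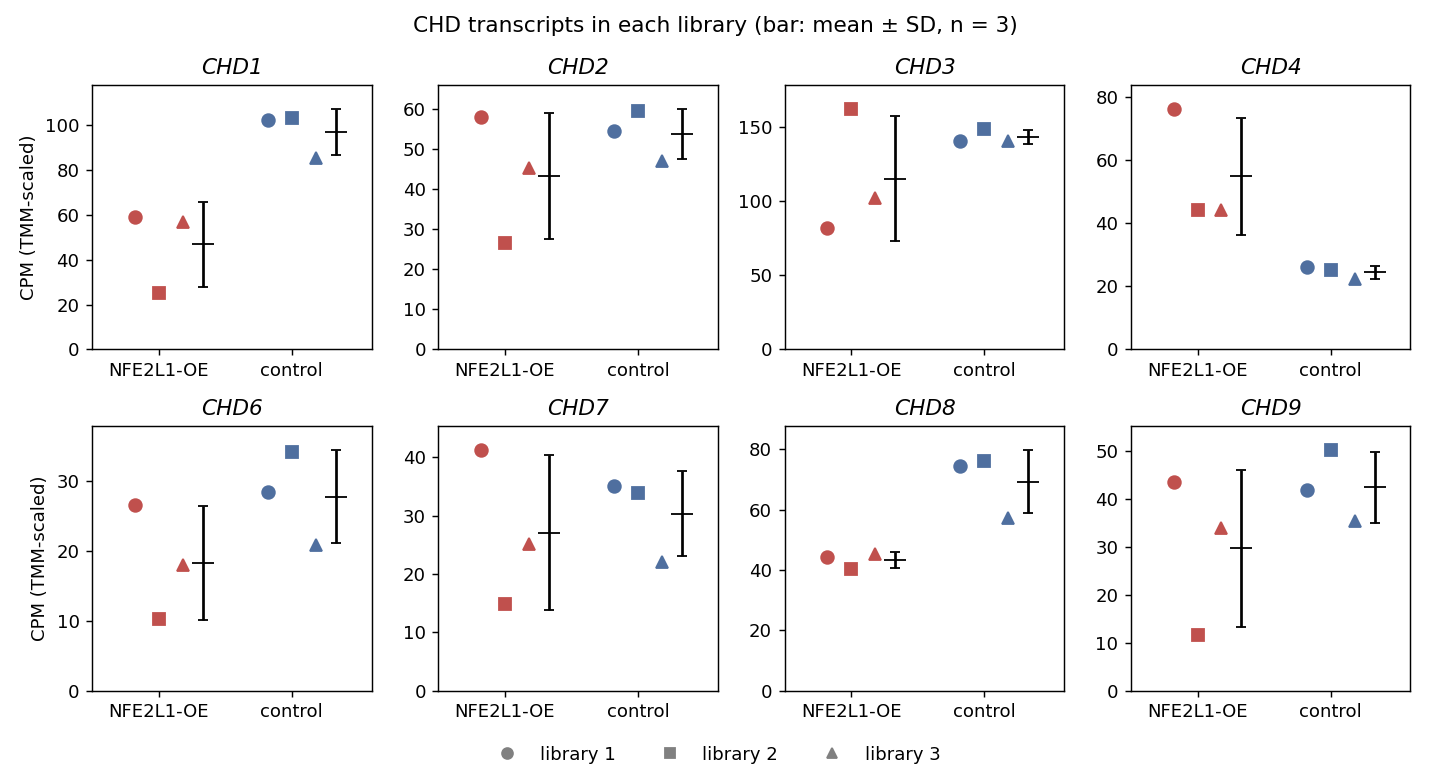
CPM of the 8 CHD genes in each library (vertical axis, one panel per gene, NFE2L1-OE meaning labelled overexpression); symbols are libraries, and bars are the mean ± SD of n = 3. The groups are separate for CHD4, CHD1 and CHD8 and overlap for the other 5 genes, and library 2 labelled overexpression is the lowest of the 6 libraries for CHD1, CHD2, CHD6, CHD7, CHD8 and CHD9.

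CHD4, a NuRD motor, had 76.2, 44.3 and 44.2 CPM in libraries 1, 2 and 3 labelled overexpression, against 26.0, 25.2 and 22.2 CPM in controls. Every library labelled overexpression was above every control, and library 1, where NFE2L1 was not raised, was the highest. CHD4 averaged 54.9 ± 18.5 CPM in libraries labelled overexpression and 24.5 ± 2.00 CPM in controls (SD, n = 3 each). In log2 units CHD4 was 1.16 ± 0.24 (SE) higher, a 2.24-fold difference (edgeR adjusted p = 0.0174). It kept its sign when any single library was left out, between 0.85 and 1.30, but the edgeR adjusted p was 0.0873, 0.0790 and 0.0565 without controls 1, 2 and 3. When FPKM were rescaled to give each library the same sum, the median over all genes moved to -0.35, and CHD4 was at 0.58 with a limma adjusted p of 0.0701. The gene NOP2, which lies 1390 bases downstream of CHD4 on the same strand and makes a nucleolar RNA methyltransferase, held only 2 to 10 counts per library. A noncoding gene on the opposite strand within CHD4 held 2 to 5 counts. Whether the deposited counts of CHD4 are complete was not tested.

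CHD3, the paralogous NuRD motor, had 81.5, 161.9 and 101.6 CPM in libraries 1, 2 and 3 labelled overexpression, against 140.3, 148.5 and 140.4 CPM in controls. Libraries 1 and 3 labelled overexpression were below all controls and library 2 was above them, so the groups overlapped. The log2 fold change of -0.31 ± 0.24 (SE) did not pass (edgeR adjusted p = 0.375). Without library 2 labelled overexpression it was -0.65 with an edgeR adjusted p of 0.0136. On rescaled FPKM, where the median over all genes was -0.35, it was -0.77 with a limma adjusted p of 0.0231. NAA38, an N-terminal acetyltransferase subunit gene on the opposite strand, overlaps CHD3 by 443 bases. NAA38 was higher in libraries labelled overexpression by 1.40 on the log2 scale (edgeR adjusted p = 0.0109). The kit was stranded per the labels, but no source used here says whether counting used strand, so reads in that overlap are uncertain.

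CHD1 had 59.0, 25.0 and 56.7 CPM in libraries 1, 2 and 3 labelled overexpression, against 102.2, 103.3 and 85.0 CPM in controls. All 3 libraries labelled overexpression were below all controls, with library 2 the lowest. CHD1 averaged 46.9 ± 19.0 CPM in libraries labelled overexpression and 96.8 ± 10.2 CPM in controls (SD, n = 3 each). On the log2 scale CHD1 was at -1.05 ± 0.30 (SE, edgeR adjusted p = 0.0408). The edgeR adjusted p was 0.0702 without library 3 labelled overexpression and 0.140, 0.129 and 0.0725 without controls 1, 2 and 3. The difference stayed negative in each of these fits, and over all single libraries left out it ran between -1.25 and -0.75.

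CHD2, the nearest relative of CHD1, had 57.9, 26.5 and 45.3 CPM in libraries 1, 2 and 3 labelled overexpression, against 54.6, 59.5 and 47.1 CPM in controls. Library 2 labelled overexpression stood well below the other 5 libraries, and library 1 lay inside the control range. The log2 fold change of -0.31 ± 0.27 (SE) did not pass (edgeR adjusted p = 0.431). CHASERR, a noncoding RNA known to restrain CHD2 in cis, is transcribed from the same strand and ends 487 bases before CHD2. CHASERR had 37.2, 23.5 and 24.2 CPM in libraries labelled overexpression, against 19.2, 20.5 and 17.8 CPM in controls. Every library labelled overexpression was above every control, but the difference of 0.56 (log2) did not pass (edgeR adjusted p = 0.108).

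CHD8 had 44.4, 40.3 and 45.4 CPM in libraries 1, 2 and 3 labelled overexpression, against 74.5, 76.0 and 57.2 CPM in controls. All 3 libraries labelled overexpression were below all controls and lay close together. CHD8 averaged 43.3 ± 2.72 CPM in libraries labelled overexpression and 69.2 ± 10.5 CPM in controls (SD, n = 3 each). CHD8 had a log2 fold change of -0.68 ± 0.17 (SE), and its edgeR adjusted p was 0.0298. The edgeR adjusted p was 0.0735 without library 3 labelled overexpression, 0.130 without control 1 and 0.137 without control 2, and the log2 fold change over all single libraries left out ran between -0.80 and -0.61. SUPT16H, which encodes a FACT histone chaperone subunit, lies 1174 bases downstream on the same strand. SUPT16H was also lower in libraries labelled overexpression, at -0.71 on the log2 scale (edgeR adjusted p = 0.0179).

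CHD9, a close relative of CHD8 described as a nuclear receptor coactivator, had 43.5, 11.6 and 33.9 CPM in libraries 1, 2 and 3 labelled overexpression, against 41.8, 50.1 and 35.4 CPM in controls. Library 1 labelled overexpression lay inside the control range and library 2 was far below it. The log2 fold change of -0.52 ± 0.40 (SE) did not pass (edgeR adjusted p = 0.386). CHD6, reported as a binding partner of the related factor NFE2L2, had 26.6, 10.3 and 18.0 CPM in libraries labelled overexpression, against 28.4, 34.1 and 20.9 CPM in controls. Its log2 fold change of -0.61 ± 0.34 (SE) did not pass (edgeR adjusted p = 0.229), and the groups overlapped through library 1 labelled overexpression. On rescaled FPKM, where the median over all genes was -0.35, CHD6 was -0.72 with a limma adjusted p of 0.0461.

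CHD7 had 41.2, 14.9 and 25.1 CPM in libraries 1, 2 and 3 labelled overexpression, against 35.1, 33.9 and 22.0 CPM in controls. Library 1 labelled overexpression was the highest of all 6 libraries and library 2 the lowest, so the control range lay inside that of the libraries labelled overexpression. CHD7 was at -0.17 ± 0.35 (log2, SE) and did not pass (edgeR adjusted p = 0.765), and it was 0.12 without library 2. The family genes CHD5 and CHD1L were in the table but below the low-count filter. CHD5, which is mainly neuronal, had 13, 18 and 1 counts in libraries labelled overexpression, against 0, 1 and 0 counts in controls. CHD1L, a damage-recruited relative, had 2, 4 and 3 counts in libraries labelled overexpression, against 11, 17 and 6 counts in controls.

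**Figure D2:**
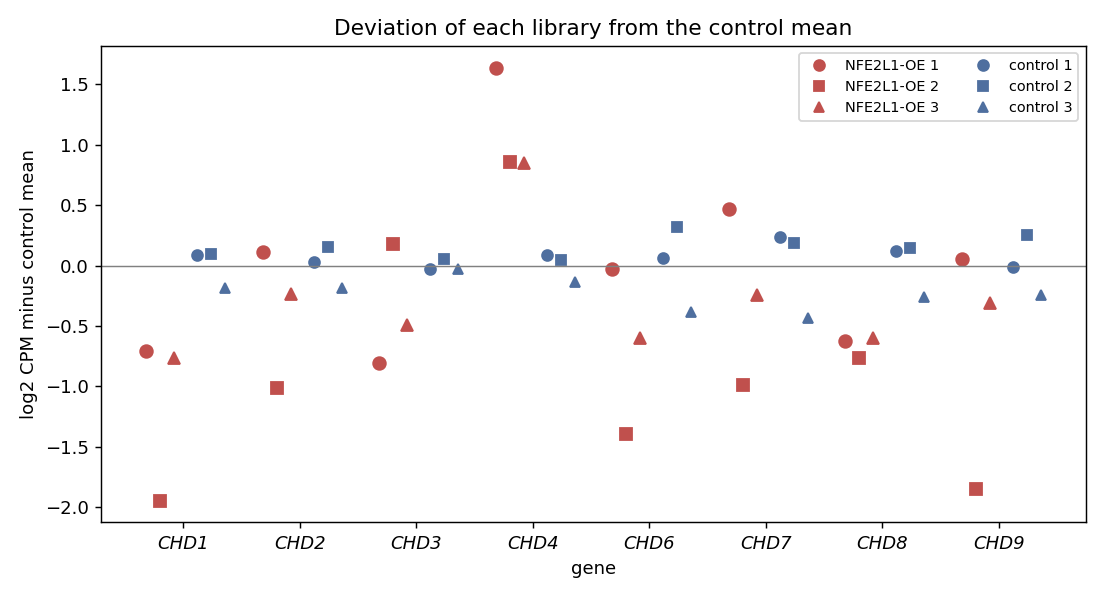
Log2 CPM of each library minus the mean of the 3 controls (vertical axis) for the 8 CHD genes (horizontal axis); symbols are libraries, with NFE2L1-OE meaning labelled overexpression. CHD4 is above 0 in all 3 libraries labelled overexpression and CHD1 and CHD8 are below 0, while library 2 holds the lowest point of 6 members.

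The 3 libraries labelled overexpression did not give the same picture of the family. Library 2 was the lowest of the 6 libraries for 6 members and the highest for CHD3. Set against the range of the 3 controls, library 1 had 3 members below, 3 within and 2 above it. Library 2 had 6 below, 0 within and 2 above, and library 3 had 6 below, 1 within and 1 above. Over all tested genes, 36.3%, 40.1% and 34.1% lay below the control range in libraries 1, 2 and 3. Among the 3010 genes of the 2 longest length deciles these shares were 49.3%, 74.5% and 61.7%, so long genes in general were low in library 2.

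All 8 members are long genes, and length moved with the fold change across the whole table. Length here is the one behind the deposited FPKM. It was 6.49 kb for CHD4, which falls in the ninth decile of length, and 7.39 to 11.6 kb for the other 7, in the longest decile. The median log2 fold change was 0.61 in the shortest decile, -0.40 in the ninth and -0.49 in the longest. In the ninth decile, 1.73% of genes were called higher and 20.8% lower. CHD4 was thus one of 26 genes called higher among 1505 genes of its length decile. In the longest decile, 0.997% were called higher and 20.3% lower, and CHD1 and CHD8 were 2 of the 306 genes called lower there.

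**Figure D3:**
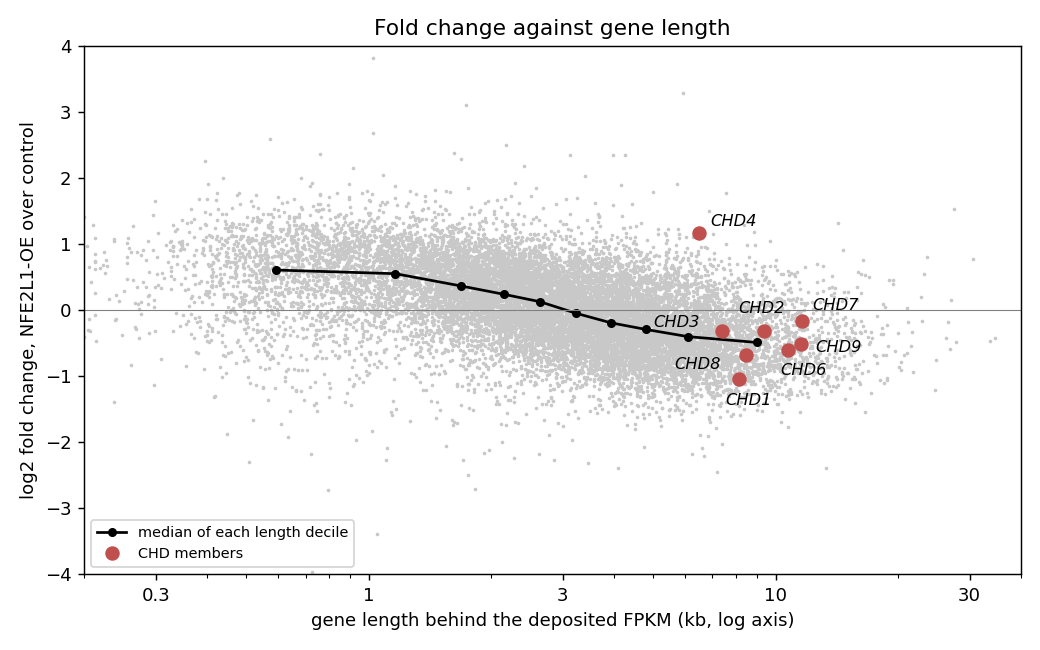
Log2 fold change of libraries labelled overexpression over controls (vertical axis) against gene length in kb (horizontal log axis); grey points are tested genes, the line joins the medians of the length deciles, red points are the CHD genes, and 57 genes lie outside the axes. Of the CHD genes, CHD4 lies above 0, in the ninth decile with a median of -0.40, and the other 7 lie below 0.

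When the trend of each library with gene length was taken out by an offset in the edgeR fit, CHD4 was 1.57 ± 0.20 (SE) with an adjusted p of 0.0201, and it was the only member called. With this offset 6.75% of all tested genes were called, 3.38% higher and 3.37% lower. CHD1 was -0.62 (adjusted p = 0.0851) and CHD8 was -0.15 (adjusted p = 0.593). CHD2, CHD3 and CHD7 changed sign, to 0.15, 0.24 and 0.29, and the median of the members was 0.026, against 0.046 over all genes.

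With length and GC content both in the offset, only 0.691% of all tested genes were called, 0.465% higher and 0.226% lower, and CHD4 was among them at 1.38 ± 0.20 (SE) with an edgeR adjusted p of 0.0394. CHD1 was -0.39 (adjusted p = 0.218) and CHD8 was -0.29 (adjusted p = 0.324), so neither lower call remained. CHD2, CHD7 and CHD9 had a positive sign in this fit, at 0.098, 0.21 and 0.097, and none passed. An offset of this kind also removes any difference between groups that follows length or GC content, and the 2 sources cannot be told apart here.

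**Figure D4:**
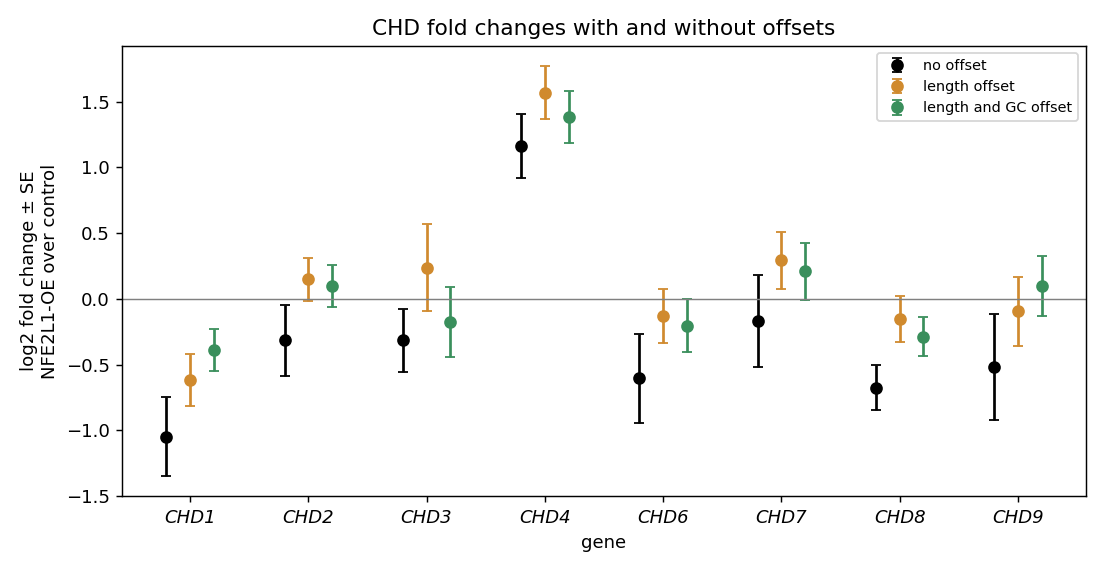
Log2 fold change ± SE of libraries labelled overexpression over controls (vertical axis) for the 8 CHD genes (horizontal axis) in edgeR fits without offset, with a length offset and with an offset for both length and GC content. CHD4 stays between 1.16 and 1.57, whereas CHD1 and CHD8 move toward 0 with either offset.

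The order of the members was read from FPKM, which are per length. In libraries labelled overexpression the means were 14.7 for CHD3, 8.07 for CHD4, 5.54 for CHD1, 4.89 for CHD8, 4.44 for CHD2, 2.48 for CHD9, 2.24 for CHD7 and 1.64 FPKM for CHD6. In controls the means were 20.3 for CHD3, 12.4 for CHD1, 8.55 for CHD8, 6.01 for CHD2, 3.95 for CHD4, 3.84 for CHD9, 2.73 for CHD7 and 2.71 FPKM for CHD6. CHD3 led the family in both groups. CHD4 ranked 1, 2 and 3 among the 8 in the libraries labelled overexpression, against 5, 6 and 5 in controls. These ranks rest on the deposited counts of CHD4, whose completeness was not tested. Neighbours in the order overlapped in range for all 7 pairs in libraries labelled overexpression, so that order is loose. Among controls only CHD4 with CHD9 and CHD7 with CHD6 overlapped.

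Ratios of paralogs within a library share that library's scale. The ratio of CHD3 to CHD4 in FPKM was 0.940, 3.21 and 2.02 in libraries 1, 2 and 3 labelled overexpression, against 4.75, 5.17 and 5.56 in controls. The groups did not overlap, and the difference of mean log2 ratios was -1.49. In library 1 labelled overexpression the 2 NuRD motors thus had nearly equal deposited FPKM, with CHD4 slightly higher. Whether the counts of CHD4 are complete was not tested, so the size of this ratio is uncertain in every library. The ratio of CHD1 to CHD2 was 1.17, 1.08 and 1.43 in libraries labelled overexpression, against 2.15, 1.99 and 2.07 in controls. These groups did not overlap either, with a log2 difference of -0.76. GC content was 38.1% for CHD1 and 46.8% for CHD2, so this ratio also carries any trend with GC content. With length and GC content in the offset, CHD1 was at -0.39 and CHD2 at 0.098, and neither passed (edgeR adjusted p = 0.218 and 0.792).

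The ratio of CHD6 to CHD7 was 0.700, 0.747 and 0.774 in libraries labelled overexpression, against 0.876, 1.09 and 1.03 in controls, again without overlap. The ratio of CHD8 to CHD9 was 1.39, 4.73 and 1.83 in libraries labelled overexpression, against 2.43, 2.07 and 2.20 in controls. It overlapped, since library 2 labelled overexpression was the highest and library 1 the lowest. The ratio of CHD2 to CHASERR was 0.284, 0.205 and 0.341 in libraries labelled overexpression, against 0.518, 0.530 and 0.482 in controls, with a log2 difference of -0.91. CHD2 is 9.35 kb long and CHASERR 1.70 kb, so this ratio also carries the trend with length. With length and GC content in the offset, CHD2 was at 0.098 and CHASERR at 0.64, both as log2 fold changes, and neither passed in edgeR (adjusted p = 0.792 and 0.140). These ratios use the same comparison as the members and carry no test.

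Genes that work with the members were examined in lists chosen by function, again with earlier results of these data known. Over all lists, 9 genes (7.03%) were called higher and 14 (10.9%) lower in edgeR, of 128 tested, against 9.62% and 9.49% of all tested genes. The share called in either direction, 18%, was near the 19.1% of all tested genes. Without control 1 or control 2 edgeR called 0 of them, with 31 and 27 at an unadjusted p under 0.05. Without control 3 the counts were 3 higher and 7 lower, and without library 3 labelled overexpression 6 and 8. Without library 2 labelled overexpression 10 were higher and 23 lower. Of 12 NuRD partners of CHD3 and CHD4, 1 was higher and 1 lower. MBD3, the subunit that marks one NuRD form, had 46.9, 44.5 and 34.9 CPM in libraries labelled overexpression, against 17.9, 22.0 and 28.4 CPM in controls (log2 fold change 0.89, edgeR adjusted p = 0.0281). RBBP4, a histone-binding subunit, had 201, 237 and 232 CPM in libraries labelled overexpression, against 340, 360 and 304 CPM in controls (log2 fold change -0.58, edgeR adjusted p = 0.0275). Both were separate between groups, in opposite directions. With length and GC content in the offset, MBD3 was at 0.72 and RBBP4, which is 7.89 kb long, at 0.095. Neither passed in that fit (edgeR adjusted p = 0.0939 and 0.861). The deacetylase and MTA subunits did not pass, and the list's median log2 fold change was 0.0014, against 0.031 over all tested genes. Of the 5 ChAHP partners of CHD4, ADNP2 alone passed, at -0.77 (edgeR adjusted p = 0.0204), and the list's median was -0.43.

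Around CHD1, 1 of 10 tested elongation factors (10%) passed, against 19.1% of all tested genes, and it was SUPT16H. Its list had a median of -0.22. SUPT4H1, an elongation factor subunit, was listed at 0 to 0.328 CPM over all 6 libraries and was not tested. None of the 8 genes of histone H3.3 deposition was called by edgeR, although 2 had an unadjusted p under 0.05, DESeq2 called 1 and limma 0. The nearest were UBN2 at -0.87 (edgeR adjusted p = 0.0526) and HIRA at 0.79 (edgeR adjusted p = 0.0939), both subunits of the HIRA chaperone complex. The median of this list was 0.15.

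Around CHD8, DPY30, a subunit of histone methyltransferase complexes, was the 1 called gene of 6 partners, at 0.67 (edgeR adjusted p = 0.0206). That is 16.7% of the partners, against 19.1% of all tested genes called in either direction. Among 7 beta-catenin target genes none was called by edgeR, by DESeq2 or by limma, and 1 had an unadjusted edgeR p under 0.05. SP5 was at 1.05 (edgeR adjusted p = 0.0985) and AXIN2 at -0.91 (edgeR adjusted p = 0.207), opposite in sign. Both levels were low, with group means of at most 2.31 CPM for SP5 and 1.41 CPM for AXIN2. With length and GC content in the offset, SP5 was at 0.26 and AXIN2 at -0.86 (edgeR adjusted p = 0.706 and 0.342). Of 8 damage response factors, 2 (25%) were lower, against 9.49% of all tested genes. These were the damage kinase ATM at -1.21 (edgeR adjusted p = 0.0451) and the repair scaffold TP53BP1 at -0.69 (edgeR adjusted p = 0.0451). ATM is 12.9 kb and TP53BP1 10.4 kb long, in the longest decile, where 20.3% of all tested genes were called lower. With length and GC content in the offset, ATM was at -0.60 and TP53BP1 at -0.17, and neither passed (edgeR adjusted p = 0.210 and 0.582).

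Other remodeller families were set beside the CHD genes. Among 25 SWI/SNF subunits only BCL7C passed, at 1.23 (edgeR adjusted p = 0.0170), and among 11 ISWI subunits only the motor SMARCA5, at -0.69 (edgeR adjusted p = 0.0281). These are 4% and 9.09% of the lists, against 19.1% of all tested genes called in either direction. With length and GC content in the offset, BCL7C was at 0.25 and SMARCA5 at 0.0087, and neither passed (edgeR adjusted p = 0.428 and 0.983). Of 20 subunits of the INO80, SRCAP and TIP60 complexes, 6 were higher and 1 lower, with a median of 0.27. The higher ones were ZNHIT1 at 1.17, TFPT at 1.09, the AAA+ ATPase RUVBL2 at 0.83, DMAP1 at 0.71, INO80E at 0.60 and MCRS1 at 0.57, and the lower one was UCHL5 at -0.59. The shares are 30% higher and 5% lower, against 9.62% and 9.49% of all tested genes. The list's median length was 1.92 kb, with a range of 0.73 to 14.1 kb, and in the third length decile, which holds this median, 16.3% of all tested genes were called higher.

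Among 15 other SNF2-type ATPases, 7 (46.7%) were lower and 0 higher, with a median of -0.62, against 9.49% lower and 9.62% higher over all tested genes. The lower ones included SHPRH at -1.53 and HLTF at -1.21, ubiquitin ligases of replication-damage tolerance, and BTAF1 at -1.44, which removes TBP from DNA. SMARCAD1 at -1.37, TTF2 at -0.96, ERCC6L2 at -0.93 and ERCC6L at -0.89 were the others. The median length over the list was 6.71 kb, which falls in the ninth length decile, where 20.8% of all tested genes were called lower. HLTF had 87.7, 79.8 and 91.6 CPM in libraries labelled overexpression, against 220, 219 and 160 CPM in controls, and all 3 were below every control. With length and GC content in the offset, edgeR called 0 genes in these lists, with 19 at an unadjusted p under 0.05. Without control 1 or control 2, edgeR called 0 of the SNF2-type ATPases and 0 of the INO80, SRCAP and TIP60 subunits, with 7 of each at an unadjusted p under 0.05. Without control 3 it called 4 of these ATPases lower and 1 of these subunits higher, and without library 3 labelled overexpression 5 and 3.

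**Figure D5:**
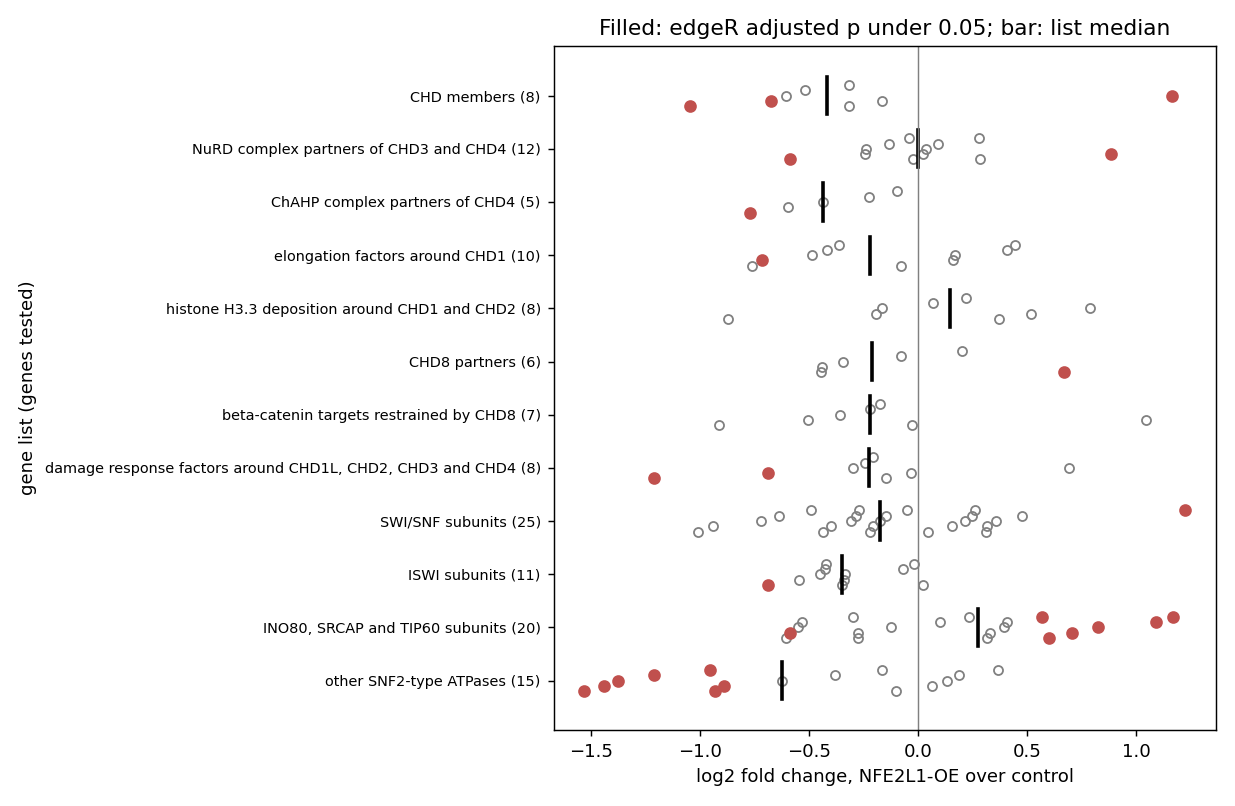
Log2 fold change of libraries labelled overexpression over controls (horizontal axis) for each tested gene of the CHD family and of 11 functional lists (vertical axis, genes tested in brackets); filled points passed an edgeR adjusted p of 0.05 and bars are list medians. CHD4 lies at 1.16, apart from the other 7 CHD genes, and the SNF2-type ATPases have 7 filled points below 0.

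The mean pattern of the members over the 6 libraries was lowest in library 2 labelled overexpression and highest in control 2. CHD6 followed this mean most closely (Pearson r = 0.996), with CHD2, CHD9 and CHD1 at 0.963, 0.949 and 0.930. CHD4 (r = -0.32) and CHD3 (r = -0.20) did not follow it. Each member contributes to the mean, so these values describe and carry no p. The 5 protein-coding genes outside the family nearest to the mean were NF1 (r = 0.999), MET (r = 0.999), USP10 (r = 0.998), ABCA12 (r = 0.997) and BAZ1A (r = 0.997). None of the 5 was called by edgeR, with adjusted p between 0.159 and 0.266. The 6 points share the libraries, their depth and their length trend.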

How the data were processed

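RNA sequencing libraries were made from HK-2 cells with a stranded mRNA kit, per the labels. Reads were trimmed with Trimmomatic 0.36 and the build was GRCh38, per the submitters' processing notes, and no source used here names the aligner or counter. The authors deposited raw counts per gene, FPKM, log2 fold changes and p-values with adjusted p-values, and the lowest row sum was 10 counts. FPKM divide by gene length, and a TMM scale absorbs composition only. The members and lists were chosen with earlier results of these data known.

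Counts were tested with edgeR 4.0.16 in R 4.3.3 (filterByExpr, TMM, quasi-likelihood test, Benjamini-Hochberg over 15046 genes, threshold 0.05), with 3 libraries against 3 and no other term. Scripts were tested on simulated data. Alternatives were limma 3.58.1, DESeq2 1.42.0, other filters and scales, offsets from smooths (mgcv 1.9.3) on length and GC content of the longest GENCODE 29 transcript (matched for 98.5% of genes), a fit with the replicate number as a block, and fits without each library in turn. Named genes were the members, NFE2L1, each list's called genes or otherwise its 2 smallest adjusted p, the 5 genes most like the members' mean, and some of the genes within 5 kb of a member. NKD1 and INO80B of the lists were not analysed here.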

Additional observations from a re-analysis of the deposited data

How the results depend on the processing

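CHD4 kept a positive sign in all 16 alternatives (0.58 to 1.57, adjusted p 0.000587 to 0.0873), and CHD1 (-1.38 to -0.39, adjusted p 0.00584 to 0.218) and CHD8 (-0.96 to -0.15, adjusted p 0.00591 to 0.593) kept a negative one. With the length offset CHD2, CHD3 and CHD7 reversed to 0.15, 0.24 and 0.29, and with length and GC content CHD2, CHD7 and CHD9 reversed to 0.098, 0.21 and 0.097. CHD7 ran between -0.60 and 0.12 with 1 library left out, and reversed to 0.12 without library 2 labelled overexpression. The cause was not tested.

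Members called were 1 higher and 2 lower, and 0 higher and 4 lower on rescaled FPKM. They were 0 lower with either offset, with CHD4 still called in both. Over all genes, 1448 higher and 1428 lower became 533 and 4170 on rescaled FPKM, 508 and 507 with the length offset and 70 and 34 with length and GC content. List genes called (9 higher, 14 lower) became 22 lower with DESeq2 and with limma at either pseudocount, 2 and 51 on rescaled FPKM, 3 and 5 with the length offset, and 0 and 0 with length and GC content. INO80, SRCAP and TIP60 subunits called higher (6) became 3 with no low-count filter, 1 on rescaled FPKM, 1 with the length offset and 0 with length and GC content, where the SNF2-type ATPases called lower (7) also became 0.

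Leaving out each library in turn gave 0 to 1 members higher and 0 to 3 lower, 0 to 1775 genes higher and 0 to 1874 lower, 0 to 10 list genes higher and 0 to 23 lower, 0 to 7 SNF2-type ATPases lower and 0 to 5 INO80, SRCAP and TIP60 subunits higher. NFE2L1 ran between 0.25 and 1.14. Its value was 1.14 (adjusted p = 0.0286) without library 1 labelled overexpression and 0.25 (adjusted p = 0.265) without library 2.

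Deviations of same-numbered libraries from their group means correlated at 0.0061, -0.51 and 0.088, and those of differently numbered libraries at -0.50 to 0.60. Deviations within a group of 3 are tied to each other, so these values cannot decide whether the numbers pair the libraries. With the replicate number as a block, edgeR called 0 genes, 0 members and 0 list genes in either direction, with 4413 genes at an unadjusted p under 0.05. In that fit CHD4 was 1.12 (adjusted p = 0.0590), CHD1 -1.13 (adjusted p = 0.0757) and CHD8 -0.67 (adjusted p = 0.0983). The biological coefficient of variation was 0.249 with 3 libraries a group, and a member that did not pass is not shown to be equal between groups.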
